A study of Mus musculus with 29 samples.

Results

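Blood cells are renewed by a small pool of hematopoietic stem cells (HSC) in the bone marrow, which give rise to multipotent progenitors (MPP) that still form every blood lineage but renew themselves for a limited time. In the mouse the surface receptor CD150, encoded by Slamf1, is carried by stem cells and lost on the way to progenitors, and the CD150hi fraction is known for a lean toward platelets and myeloid cells. Lymphoid genes such as Flt3 and Dntt are known to be switched on in progenitors before any lineage marker appears.

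The comparison spans the top and the bottom of this hierarchy in wild-type (WT) mice: CD150hi HSC against CD150neg MPP, a population whose labels read HSC and which the study's methods call MPP. It takes the 10 libraries of these 2 groups, 5 each, out of 29 in the deposited table, chosen by genotype and cell type and paired by the mouse code that each CD150hi library shares with a CD150neg library. The WT mice carry no deletion, were on the C57BL/6J background, received no treatment that the labels state, and were 13.28 weeks old (mice 1, 2 and 3), 12.42 weeks (mouse 4) and 12.85 weeks (mouse 5). Both populations came from bone marrow by flow cytometry as c-kit-positive, lineage-negative, Sca-1-positive cells without CD41 and CD48, and were divided by CD150. The same comparison was also made in mice heterozygous for a germ line deletion of chromosome band 5A3 (5A3+/del), in which 4 mice have both populations. The 5A3+/del mice were 13.28 weeks (mouse 1), 13.85 weeks (mouse 2), 12.42 weeks (mice 3 and 4) and 12.85 weeks old (mouse 5, without an MPP library).

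The deposited values are FPKM, which are fragments scaled to the exon length of the gene and to the mapped fragments of the library. Steps in the low values gave 25248863 to 31538221 fragments per CD150hi library and 21229490 to 33164483 per CD150neg library. Fragments were amplified and carry no molecular identifiers, so the floor of 3 fragments used here covers counting error only. Differences are CD150hi minus CD150neg on the log2(FPKM + 1) scale after quantile normalization, on which a gene close to 0 shows a smaller difference than the ratio of its FPKM. They were tested with limma with the mouse as a block, two-sided, and called at an adjusted p under 0.05. In RNA from sorted pools, fewer cells that express a gene and less of its RNA per cell cannot be told apart.

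Slamf1 (chromosome 1, 173697258 to 173731315, plus strand in the GENCODE annotation of mm9) followed the sort. Its deposited FPKM were 14.3, 15.4, 15.1, 12.5 and 14.7 in CD150hi HSC and 0.0138, 0.00951, 0.142, 0.267 and 0.296 in CD150neg MPP for mice 1 to 5. Every CD150hi library lay far above every MPP library, in which Slamf1 had at most 31 fragments. Since CD150 divided the cells, this is a check of the labels and not a result (log2 difference 3.75 ± 0.21 SE, 3.59 to 7.16 over the alternatives, adjusted p = 1.47e-09). Kit and Ly6a, which encodes Sca-1, were high in both populations, with 159 ± 33.2 in CD150hi HSC and 145 ± 19 in CD150neg MPP (SD, n = 5) for Kit and 118 ± 23.3 in CD150hi HSC and 147 ± 39.1 in CD150neg MPP (SD, n = 5) for Ly6a. Neither passed the test (log2 difference 0.07, adjusted p = 0.761 for Kit; log2 difference -0.32, adjusted p = 0.253 for Ly6a). Itga2b, the gene of CD41, was low in both, at 2.54 ± 0.903 in CD150hi HSC and 1.79 ± 0.654 in CD150neg MPP (SD, n = 5), and was not called (log2 difference 0.38, adjusted p = 0.327). Cd48 transcripts were present in MPP although both populations were gated without CD48 protein. Its FPKM were 0.0666, 0, 0.309, 0.951 and 0.40 in CD150hi HSC and 6.06, 3.4, 10.5, 4.53 and 7.34 in CD150neg MPP, with no overlap (log2 difference -2.37 ± 0.25 SE, -4.55 to -2.12 over the alternatives, adjusted p = 4.19e-06).

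Several features of the libraries stood apart. The MPP library of mouse 4 had 23588 genes above 0 FPKM, against 17504 to 20805 in the others of the 10 compared. The libraries of WT mouse 3 had Xist at 303 FPKM in CD150hi HSC and 319 in MPP, against at most 0.409 in the 8 libraries of the other mice, and the 4 Y-linked genes Ddx3y, Eif2s3y, Kdm5d and Uty summed to 0.0222 and 0.0237 there against 51.4 to 68.4. The CD150hi library of mouse 2 was far from the other 4 on the second principal component of the 10 libraries, at 53.9 against -29.4, -23.8, -17.4 and -17.1, while the first component, with 26.3% of the variance, separated the populations. Mature granulocyte transcripts differed between libraries. S100a8, which encodes a granulocyte calcium-binding protein, had FPKM of 478, 146, 16.8, 54.9 and 152 in CD150hi HSC and 76.5, 2.23, 28.5, 38.7 and 29 in CD150neg MPP. Ly6g, a neutrophil marker, was at 9.31 and 4.82 in the CD150hi libraries of mice 1 and 2 and at 0 in the other 8.

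Of 15409 genes tested, 1646 (10.7%) differed between WT CD150hi HSC and CD150neg MPP. 890 (5.78%) were higher in CD150hi HSC and 756 (4.91%) were lower. The difference was at least 2-fold for 257 of the higher and 212 of the lower genes, and at least 4-fold for 29 and 31. The median over all genes tested was -0.007. The 5 CD150hi and 5 MPP values did not overlap for 8.44% of the genes tested and for 1007 of the 1646 called. 139 of the higher genes would not have passed the filter without the CD150hi libraries of both genotypes, and 107 of these were called with no filter too; for lower genes and MPP libraries the numbers were 34 and 28. Among named genes these were Sdpr (adjusted p with no filter = 5.66e-08), Vwf (adjusted p with no filter = 9.47e-10), H19 (adjusted p with no filter = 0.000985), Klrb1c (adjusted p with no filter = 0.0125), Kdr (adjusted p with no filter = 0.108) and Meg3 (adjusted p with no filter = 1.12e-06). Leaving out mouse 3 gave 768 genes higher and 640 lower, leaving out mouse 2 gave 642 genes higher and 569 lower, and leaving out mice 1 and 2 together, a choice made after the values were seen, gave 382 genes higher and 352 lower. A fit of the 10 libraries alone, with 4 residual degrees of freedom in place of 15, gave 376 genes higher and 304 lower.

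**Figure D1:**
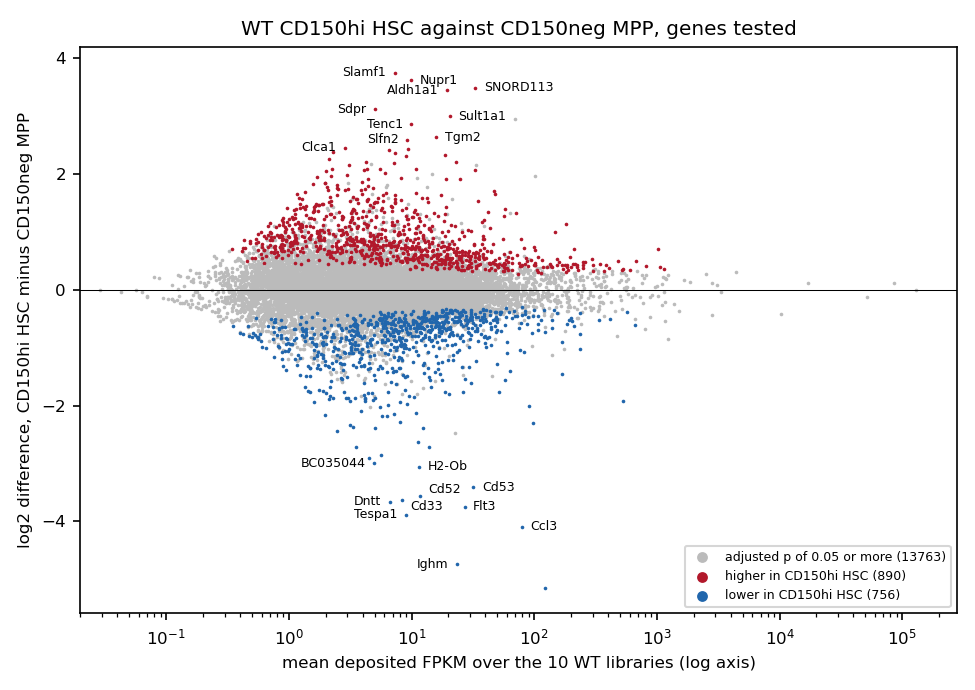
Each point is a gene tested, with the mean deposited FPKM over the 10 WT libraries on a log axis and the log2 difference of CD150hi HSC minus CD150neg MPP. The 890 genes called higher are red, the 756 called lower are blue, and the names are the 10 genes with the largest differences in each direction under the naming rule.

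The genes with the largest differences toward CD150hi HSC under the naming rule and on the log2(FPKM + 1) scale, Slamf1 aside, included Nupr1, Aldh1a1, Sdpr and Sult1a1. For the 10 genes with the largest differences in each direction, the rule required FPKM without overlap, so their non-overlap is not a result. Nupr1, a small chromatin-associated stress protein, had FPKM of 17.7, 41.3, 12.6, 12.7 and 12.5 in CD150hi HSC and 0.653, 0.515, 0.0738, 0.604 and 0.728 in CD150neg MPP. The CD150hi value of mouse 2 was the highest and the populations did not overlap (log2 difference 3.62 ± 0.29 SE, adjusted p = 1.17e-07). Aldh1a1, a retinaldehyde dehydrogenase long used to mark stem cells by its activity, had 33.2, 30.1, 33, 34.6 and 50.3 in CD150hi HSC and 2.59, 2.73, 1.89, 2.43 and 2.86 in CD150neg MPP. All 5 CD150hi libraries were above 30 and all MPP libraries below 3 (log2 difference 3.44 ± 0.23 SE, adjusted p = 1.24e-08). Sdpr, a component of caveolae, had 11.3, 10.6, 12, 8.68 and 6.17 in CD150hi HSC and 0, 0.191, 0.721, 0.0661 and 0.17 in CD150neg MPP and was close to absent from MPP (log2 difference 3.12 ± 0.18 SE, 2.89 to 6.12 over the alternatives, adjusted p = 1.54e-09). Sult1a1, a sulfotransferase of phenols, had 39.5, 47.6, 43.4, 23.2 and 29 in CD150hi HSC and 4.06, 10.2, 2.54, 2.14 and 2.86 in CD150neg MPP, with MPP of mouse 2 above the other MPP libraries and still below every CD150hi library (log2 difference 3.00 ± 0.25 SE, adjusted p = 2.19e-07).

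Tenc1, a tensin of focal adhesions, averaged 18.2 ± 4.46 in CD150hi HSC and 1.67 ± 0.488 in CD150neg MPP (SD, n = 5, log2 difference 2.86 ± 0.17 SE, adjusted p = 1.63e-09). Tgm2, the tissue transglutaminase that cross-links proteins, averaged 28 ± 3.32 in CD150hi HSC and 3.86 ± 0.911 in CD150neg MPP (SD, n = 5, log2 difference 2.64 ± 0.13 SE, adjusted p = 3.14e-10). The Schlafen gene Slfn2, which is known for its part in T cell and monocyte quiescence, had 20.7, 28.3, 19.5, 8.61 and 7.03 in CD150hi HSC and 1.98, 1.44, 1.56, 1.68 and 1.79 in CD150neg MPP. Its CD150hi values of mice 4 and 5 were lower than those of the other mice and still above all MPP values (log2 difference 2.60, adjusted p = 8.6e-06). Clca1 averaged 5.54 ± 1.57 in CD150hi HSC and 0.184 ± 0.198 in CD150neg MPP (SD, n = 5, log2 difference 2.46, 2.16 to 5.60 over the alternatives, adjusted p = 4.45e-08). SNORD113, an entry named for a family of small nucleolar RNAs and without a matched position, had 58.9, 79.3, 67.5, 55.2 and 36.8 in CD150hi HSC and 0, 6.12, 9.78, 2.27 and 15.8 in CD150neg MPP. It belongs to a family of near-identical copies, so its value is uncertain (log2 difference 3.49, adjusted p = 3.98e-05).

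In the other direction, the largest differences under the naming rule on the log2(FPKM + 1) scale were those of Ighm, Ccl3, Tespa1 and Flt3. The pseudocount bears on this order. The protein-coding gene Gm11428, which the rule left out for the form of its symbol (Gm and digits), had a larger difference (log2 difference -5.15, adjusted p = 3.47e-09). Ighm, the constant region of the immunoglobulin mu chain, had FPKM of 0.319, 0.0237, 0.752, 0.267 and 1.95 in CD150hi HSC and 37.7, 52.3, 19.7, 56.9 and 62.8 in CD150neg MPP. Each MPP library was at least 10 times the highest CD150hi library (log2 difference -4.74 ± 0.47 SE, adjusted p = 1.78e-06). Ighm is transcribed in a germline form before any rearrangement, and the FPKM do not tell these forms apart. Ccl3, a chemokine, had 1.81, 22.2, 6.18, 6.86 and 13 in CD150hi HSC and 169, 190.4, 113, 147 and 127 in CD150neg MPP (log2 difference -4.10 ± 0.34 SE, adjusted p = 2.19e-07). Tespa1, a signalling protein of developing T cells, had 0, 0, 0.714, 0 and 0.544 in CD150hi HSC and 15.2, 13.8, 21.3, 18.5 and 20.1 in CD150neg MPP (log2 difference -3.89 ± 0.24 SE, -7.41 to -3.66 over the alternatives, adjusted p = 4.11e-09). Flt3, the receptor tyrosine kinase of multipotent and lymphoid progenitors (chromosome 5, 148142317 to 148212065, minus strand, mm9), had 3.71, 1.66, 3.12, 2.59 and 3.23 in CD150hi HSC and 48.5, 62.4, 41.3, 57.9 and 46.7 in CD150neg MPP. The lowest MPP value was over 10 times the highest CD150hi value (log2 difference -3.74 ± 0.15 SE, adjusted p = 2.67e-11).

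Dntt, the terminal transferase that adds bases at immunoglobulin and T cell receptor joints, had 7 fragments in all over the 5 CD150hi libraries and 4155 over the 5 MPP libraries. Its FPKM were 0, 0, 0, 0.0514 and 0.0596 in CD150hi HSC and 11.4, 8.59, 12.7, 13.4 and 20.3 in CD150neg MPP, and its fitted difference depends on the pseudocount (log2 difference -3.66, -8.95 to -3.38 over the alternatives, adjusted p = 3.92e-06). Cd33, a sialic acid-binding receptor of myeloid cells, averaged 0.345 ± 0.376 in CD150hi HSC and 16.4 ± 4.93 in CD150neg MPP (SD, n = 5, log2 difference -3.63, -6.32 to -3.34 over the alternatives, adjusted p = 4.45e-08). Cd52, a small surface glycoprotein of lymphocytes, averaged 0.926 ± 0.786 in CD150hi HSC and 22.5 ± 5.78 in CD150neg MPP (SD, n = 5, log2 difference -3.57, adjusted p = 5.77e-10). The leukocyte tetraspanin Cd53 averaged 4.92 ± 1.82 in CD150hi HSC and 59.1 ± 11 in CD150neg MPP (SD, n = 5, log2 difference -3.41, adjusted p = 1.01e-09). H2-Ob, a chain of the class II chaperone DO, averaged 1.72 ± 1.08 in CD150hi HSC and 21.3 ± 1.84 in CD150neg MPP (SD, n = 5, log2 difference -3.05, adjusted p = 1.47e-09). BC035044 averaged 0.264 ± 0.269 in CD150hi HSC and 9.64 ± 2.36 in CD150neg MPP (SD, n = 5, log2 difference -2.99, -6.03 to -2.72 over the alternatives, adjusted p = 1.34e-08). None of these genes overlapped between the populations, which the naming rule required of them.

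**Figure D2:**
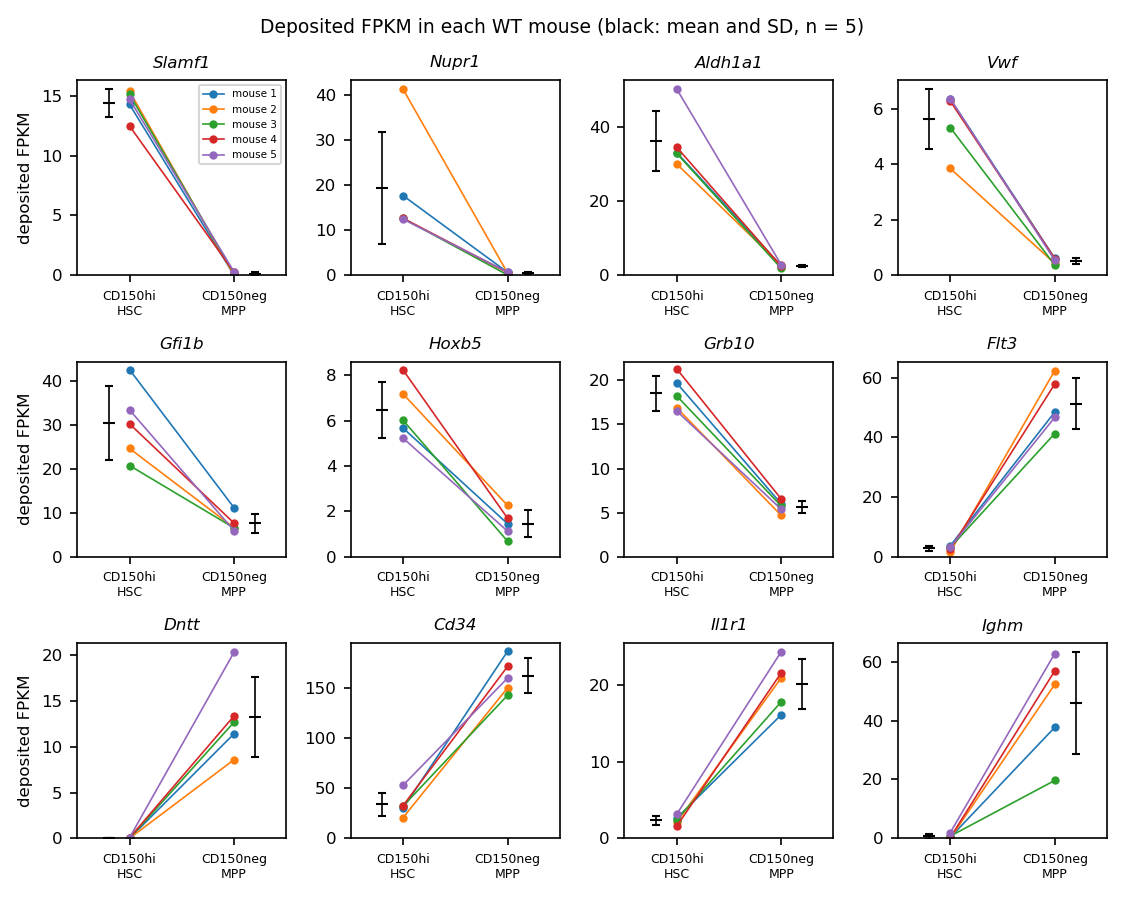
Deposited FPKM of 12 genes in CD150hi HSC and CD150neg MPP of each WT mouse, with a line joining the 2 libraries of a mouse and the mean and SD (n = 5) in black on axes that start at 0. The top row and the first 3 genes of the middle row are higher in CD150hi HSC in 5 of 5 mice, and the others are lower in 5 of 5.

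Genes associated with long-term stem cells were the list with the most members called. All lists and their members were chosen with earlier results of these data known, so their shares called are a description and not a test. Of 38 members tested, 30 were called higher and 3 lower in CD150hi HSC (86.8% called, 23 to 30 higher and 1 to 3 lower over the alternatives), with a median log2 difference of 1.32 (1.22 to 1.42), against 10.7% called and a median of -0.007 over all genes. Each list is given with its share called by limma, the range of its counts over the alternatives and, after its median, the range of that median; over all genes 5.78% were called higher and 4.91% lower. 24 members rose at least 2-fold. Beside Nupr1, Aldh1a1 and Sdpr these included the endothelial and platelet adhesion protein Vwf, the angiopoietin receptor Tek (log2 difference 1.58, adjusted p = 1.84e-06), the junction protein Esam (log2 difference 1.32, adjusted p = 5.76e-07) and the cell surface enzyme Cd38 (log2 difference 1.63, 1.39 to 2.93 over the alternatives, adjusted p = 2.49e-05). 3 members fell: Vldlr (log2 difference -1.93, adjusted p = 7.41e-08), the adhesion molecule Alcam (log2 difference -0.47, adjusted p = 0.0071) and the transcription factor Hlf (log2 difference -0.40, adjusted p = 0.0158). Hlf missed the threshold without mouse 1 (adjusted p = 0.0556), mouse 2 (adjusted p = 0.0702) and mouse 5 (adjusted p = 0.0597), and with median scaling (0.0574), no replicate block (0.075), the 10 libraries alone (0.147) and mice 1 and 2 left out (0.243), with a range of 0.00114 to 0.243 over its alternatives. Alcam missed the threshold in the fit of the 10 libraries (adjusted p = 0.112) and without mice 1 and 2 (adjusted p = 0.14), with a range of 0.00265 to 0.14 over its alternatives. Procr, which encodes the stem cell surface protein EPCR, did not pass the test at 64 ± 25 in CD150hi HSC and 50.4 ± 7.89 in CD150neg MPP (SD, n = 5, log2 difference 0.27, adjusted p = 0.204). Genes outside the naming rule were chosen after their values were seen, here and in what follows: Procr, Hlf, Alcam, Vldlr, Cd38, Esam, Tek, Hoxb4, Mecom, Gfi1, Ikzf2, Lmo2, Satb1, Ikzf1, Gata3, Il7r, Rag1, Cebpb, Itgb3, Pf4, Meg3, Cenpa, Cenpe, Tgfbr3, Ghr and Itga5.

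Of 38 transcription factors and cofactors of self-renewal tested, 15 were called higher and 5 lower in CD150hi HSC (52.6% called, 9 to 19 higher and 1 to 5 lower over the alternatives), with a median log2 difference of 0.35 (0.22 to 0.40). Gfi1b, a repressor that restrains stem cell cycling and is needed for platelet and red cell formation, had FPKM of 42.5, 24.6, 20.8, 30.2 and 33.4 in CD150hi HSC and 11.2, 6.61, 6.57, 7.67 and 5.96 in CD150neg MPP (log2 difference 1.92 ± 0.16 SE, adjusted p = 2.02e-07). Hoxb5 had 5.68, 7.18, 6.02, 8.24 and 5.23 in CD150hi HSC and 1.46, 2.27, 0.686, 1.7 and 1.13 in CD150neg MPP (log2 difference 1.66 ± 0.13 SE, adjusted p = 1.07e-07). Gata2, a zinc-finger factor that stem cells need, had 109, 102, 103, 98.2 and 98.7 in CD150hi HSC and 39.5, 45.7, 44.2, 35 and 39.6 in CD150neg MPP, so that every CD150hi library was above every MPP library (log2 difference 1.33 ± 0.14 SE, adjusted p = 3.27e-06). Mecom (log2 difference 0.87, adjusted p = 1.43e-05) and Hoxb4 (log2 difference 0.75, adjusted p = 0.00103) also rose. Gfi1 (log2 difference -0.77, adjusted p = 0.00168), Ikzf2 (log2 difference -0.79, adjusted p = 0.00243) and Lmo2 (log2 difference -0.53, adjusted p = 0.0252) fell. Lmo2 missed the threshold without mouse 1 (adjusted p = 0.0841), mouse 2 (adjusted p = 0.113) and mouse 4 (adjusted p = 0.0526), and with median scaling (0.0763), the 10 libraries alone (0.102) and mice 1 and 2 left out (0.315), with a range of 0.00927 to 0.315 over its alternatives. Gfi1 missed the threshold in the fit of the 10 libraries (adjusted p = 0.0864), with a range of 0.00102 to 0.0864 over its alternatives. Without mouse 1 and 2 in turn the counts were 12 and 11 higher and 3 and 3 lower.

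Among 18 lymphoid priming genes tested, 12 were lower and 1 was higher in CD150hi HSC (72.2% called, 0 to 1 higher and 8 to 14 lower over the alternatives), with a median of -0.64 (-0.73 to -0.46). Beyond Flt3, Dntt and Cd52, the chromatin organiser Satb1 (log2 difference -2.14, adjusted p = 1.47e-09) and the transcription factor Ikzf1 (log2 difference -0.66, adjusted p = 0.000599) were lower. Gata3, a factor of T cells that stem cells also use, was the one that rose (log2 difference 0.92, adjusted p = 0.00105). Gata3 missed the threshold without mice 1 and 2 (adjusted p = 0.0747), with a range of 0.000261 to 0.0747 over its alternatives. 8 members were too low to test, among them Il7r at 0.00916 and 0.534 mean FPKM in CD150hi HSC and MPP and Rag1 at 0.00741 and 0.0454.

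Of 20 granulocyte and monocyte priming genes tested, 2 were called higher and 4 lower in CD150hi HSC (30% called, 0 to 6 higher and 3 to 6 lower over the alternatives), with a median log2 difference of 0.03 (-0.09 to 0.15). Cd33 and Csf2rb, the shared beta chain of the receptors for GM-CSF, IL-3 and IL-5, were lower. Csf2rb had FPKM of 4.34, 7.12, 12.5, 10.9 and 7.61 in CD150hi HSC and 14.1, 21.2, 17.5, 17.1 and 15.9 in CD150neg MPP, without overlap (log2 difference -0.96 ± 0.12 SE, adjusted p = 2.06e-05). Ltf, lactoferrin of secondary granules, was called higher (log2 difference 1.39, 0.83 to 3.50 over the alternatives, adjusted p = 0.012), and its FPKM were 5.55, 3.7, 0.938, 2.01 and 2.05 in CD150hi HSC and 0.481, 0, 0.704, 0.467 and 0.189 in CD150neg MPP. Ltf missed the threshold without mouse 2 (adjusted p = 0.0789), and with the 10 libraries alone (0.0712) and mice 1 and 2 left out (0.286), with a range of 0.00221 to 0.286 over its alternatives. Cebpb was called higher too (log2 difference 0.78, adjusted p = 0.0142). Cebpb missed the threshold without mouse 1 (adjusted p = 0.0562), mouse 2 (adjusted p = 0.0843) and mouse 4 (adjusted p = 0.0576), and with no replicate block (0.184), the mouse as a random effect (0.128) and mice 1 and 2 left out (0.27), with a range of 0.0159 to 0.27 over its alternatives. For the list, without mouse 1, 2, 3 and 4 in turn the counts were 1, 0, 5 and 1 higher and 5, 4, 4 and 4 lower. The 11 mature granulocyte and macrophage markers in the table summed to 742, 314, 64.7, 138 and 310.02 FPKM in the CD150hi libraries and 103, 23, 63.4, 84.1 and 63.3 in the MPP libraries of mice 1 to 5, led by S100a8. S100a9 had 246, 155, 26.8, 64 and 129 in CD150hi HSC and 7.85, 2.11, 18.7, 26.1 and 19.2 in CD150neg MPP. Neither S100a8 (log2 difference 1.97, 0.64 to 2.66 over the alternatives, adjusted p = 0.115) nor S100a9 (log2 difference 2.95, 1.45 to 3.58 over the alternatives, adjusted p = 0.0638) passed the test. S100a8 passed in 2 and S100a9 in 4 of the 16 alternatives. Of the 6 markers tested limma called 0, with 3 higher and 1 lower at an unadjusted p under 0.05 and 2 called higher by voom, and without mouse 3 the counts were 2 higher and 0 lower. Mmp8 and Mmp9 averaged 0.085 and 0.106 FPKM in CD150hi HSC. The part of mature granulocyte RNA in the values of Ltf and Cebpb was not tested.

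Of 22 megakaryocyte and platelet genes tested, 10 were called higher and 1 lower in CD150hi HSC (50% called, 6 to 10 higher and 1 lower over the alternatives), with a median log2 difference of 0.58 (0.34 to 0.70). Vwf had FPKM of 6.36, 3.85, 5.33, 6.28 and 6.37 in CD150hi HSC and 0.61, 0.429, 0.37, 0.606 and 0.541 in CD150neg MPP, without overlap (log2 difference 2.16 ± 0.12 SE, 2.12 to 3.51 over the alternatives, adjusted p = 1.03e-09). Mmrn1, a carrier of factor V in platelets, had 71.1, 74.3, 68.7, 71.9 and 75.1 in CD150hi HSC and 21.5, 19.6, 19.8, 27.1 and 23.3 in CD150neg MPP (log2 difference 1.71 ± 0.11 SE, adjusted p = 7.53e-09). Itgb3, the beta chain of the fibrinogen receptor (log2 difference 1.54, adjusted p = 2.17e-05), rose as well. Plek, a protein kinase C substrate first known from platelets, went the other way, at 13.4, 11.1, 10.1, 15.9 and 20.8 in CD150hi HSC and 46.1, 46, 29.98, 52.3 and 58.3 in CD150neg MPP (log2 difference -1.62 ± 0.14 SE, adjusted p = 2.28e-07). Pf4, a platelet chemokine, showed no call at 20.7 ± 11.7 in CD150hi HSC and 23.3 ± 9.67 in CD150neg MPP (SD, n = 5, log2 difference -0.18, adjusted p = 0.762). Of 16 erythroid priming genes tested, 2 were called higher and 1 lower in CD150hi HSC (18.8% called, 1 to 3 higher and 0 to 3 lower over the alternatives), with a median log2 difference of 0.13 (-0.05 to 0.32). Zfpm1, a cofactor of GATA factors, rose (log2 difference 0.81, adjusted p = 0.000625), and the beta globin Hbb-b2 was called lower (log2 difference -0.66, adjusted p = 0.0415). Hbb-b2 was lower in 4 of 5 mice. Hbb-b2 missed the threshold without mouse 2 (adjusted p = 0.19), mouse 3 (adjusted p = 0.0637), mouse 4 (adjusted p = 0.169) and mouse 5 (adjusted p = 0.14), and with a pseudocount of 0.1 (0.0515), no filter (0.0747), no replicate block (0.343), the mouse as a random effect (0.27) and the 10 libraries alone (0.228), with a range of 0.00106 to 0.343 over its alternatives. It has a near-identical neighbour, so its value is uncertain. Zfpm1 missed the threshold in the fit of the 10 libraries (adjusted p = 0.0623), with a range of 0.000127 to 0.0623 over its alternatives. Without mouse 1, 3, 4 and 5 in turn the counts were 2, 2, 3 and 2 higher and 2, 0, 0 and 0 lower.

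Of 17 imprinted growth-control genes tested, 8 were called, each higher in CD150hi HSC (47.1% called, 3 to 8 higher and 0 lower over the alternatives), with a median log2 difference of 0.62 (0.51 to 1.14). The median was 1.09 with voom. Grb10, an adaptor that dampens insulin signalling, had FPKM of 19.7, 16.9, 18.2, 21.3 and 16.5 in CD150hi HSC and 6.01, 4.69, 5.76, 6.56 and 5.39 in CD150neg MPP (log2 difference 1.58 ± 0.13 SE, adjusted p = 1.17e-07). Rian, a noncoding RNA of the Dlk1 to Dio3 region, had 4.67, 4.26, 2.22, 6.18 and 4.72 in CD150hi HSC and 0.195, 0.185, 0.975, 0.669 and 0.934 in CD150neg MPP (log2 difference 1.75 ± 0.22 SE, 1.46 to 2.99 over the alternatives, adjusted p = 2.93e-05), and its neighbour Meg3 rose too (log2 difference 1.12, 1.06 to 2.62 over the alternatives, adjusted p = 1.14e-06). H19, a noncoding RNA next to Igf2, had 0.568, 4.66, 2.8, 0.892 and 3.22 in CD150hi HSC and no fragment in any of the 5 MPP libraries. With 3 fragments per library as the floor, its mean in CD150hi HSC was at least 40.8-fold higher (log2 difference 1.58, 1.35 to 7.68 over the alternatives, adjusted p = 0.000206). Cdkn1c, the imprinted CDK inhibitor p57, had 14.8, 15.1, 11, 14.9 and 16.9 in CD150hi HSC and 9.64, 4.39, 6.03, 5.34 and 3.88 in CD150neg MPP (log2 difference 1.26 ± 0.26 SE, adjusted p = 0.00307). Cdkn1c missed the threshold without mice 1 and 2 (adjusted p = 0.0506), with a range of 0.000762 to 0.0506 over its alternatives.

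Of 19 G1 cyclins, their kinases and CDK inhibitors tested, 3 were called higher and 1 lower in CD150hi HSC (21.1% called, 0 to 4 higher and 1 lower over the alternatives), with a median log2 difference of 0.21 (0.08 to 0.24). Of the 3 called higher, Cdkn1c had the largest difference (log2 difference 1.26, adjusted p = 0.00307). It is described above with the imprinted genes and is also a member of the stem cell list. Cdk6, the kinase of D-type cyclins that times exit from quiescence, was lower, at 26.4, 25.6, 37.8, 27.1 and 33.6 in CD150hi HSC and 50.3, 42, 48.2, 68 and 70.9 in CD150neg MPP (log2 difference -0.82 ± 0.13 SE, adjusted p = 0.000344). Its partner Ccnd3 was called higher (log2 difference 0.53, adjusted p = 0.0439), with 4 of 5 mice in that direction. Ccnd3 missed the threshold without mouse 1 (adjusted p = 0.105), mouse 2 (adjusted p = 0.178), mouse 4 (adjusted p = 0.118) and mouse 5 (adjusted p = 0.165), and with no filter (0.0672), FPKM as deposited (0.0666), median scaling (0.0551), no replicate block (0.0612), the 10 libraries alone (0.132) and mice 1 and 2 left out (0.372), with a range of 0.0254 to 0.372 over its alternatives. For the G1 list, without mouse 1, 2, 4 and 5 in turn the counts were 1, 1, 1 and 1 higher and 1, 1, 1 and 1 lower. Of 50 replication and nucleotide synthesis genes, limma called 0 higher and 1 lower (2.0% called, 0 higher and 0 to 3 lower over the alternatives), with a median of -0.05 (-0.12 to -0.01), against 2 and 6 at an unadjusted p under 0.05 and 0 and 3 by voom. The helicase subunit Mcm6 was the one that fell (log2 difference -0.48, adjusted p = 0.022). Mcm6 missed the threshold without mouse 1 (adjusted p = 0.0572), mouse 2 (adjusted p = 0.115), mouse 4 (adjusted p = 0.0635) and mouse 5 (adjusted p = 0.0821), and with no replicate block (0.0964), the mouse as a random effect (0.0638), the 10 libraries alone (0.137) and mice 1 and 2 left out (0.275), with a range of 0.00703 to 0.275 over its alternatives. The sliding clamp Pcna, at 53.8 ± 2.91 in CD150hi HSC and 61.8 ± 10.04 in CD150neg MPP (SD, n = 5), showed no call (log2 difference -0.16, adjusted p = 0.553).

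Of 43 mitosis genes, limma called 5, each lower (11.6% called, 0 higher and 0 to 8 lower over the alternatives). Over all genes 10.7% were called in either direction, a close share, and 4.91% were called lower. Of the 43 mitosis genes, 36 had a negative difference, with a median of -0.29 (-0.46 to -0.25). Voom called 5 lower, with a median of -0.46. Cdc20, the activator of the anaphase-promoting complex (log2 difference -0.87, adjusted p = 0.0415), the kinesin Kif23 (log2 difference -0.81, adjusted p = 0.00187) and the proliferation marker Mki67 (log2 difference -0.67, adjusted p = 0.0438) fell, as did the centromere proteins Cenpa (log2 difference -0.63, adjusted p = 0.0387) and Cenpe (log2 difference -0.63, adjusted p = 0.012). Mki67 had 9.7, 5.6, 27.8, 13.3 and 20.4 in CD150hi HSC and 19.8, 18.3, 21.6, 25.2 and 32.2 in CD150neg MPP. Its CD150hi values ranged widely and overlapped those of MPP, and its log2 difference ran from -0.91 to -0.39 over the alternatives. Mki67 missed the threshold without mouse 1 (adjusted p = 0.124), mouse 2 (adjusted p = 0.159), mouse 4 (adjusted p = 0.14) and mouse 5 (adjusted p = 0.107), and with a pseudocount of 0.1 (0.0502), no filter (0.08), no replicate block (0.111), the mouse as a random effect (0.0773), the 10 libraries alone (0.179) and mice 1 and 2 left out (0.44), with a range of 0.00497 to 0.44 over its alternatives. Cdc20 missed the threshold without mouse 1 (adjusted p = 0.182), mouse 2 (adjusted p = 0.118), mouse 3 (adjusted p = 0.114) and mouse 4 (adjusted p = 0.0884), and with no filter (0.0851), the 10 libraries alone (0.0662), voom (0.0598) and mice 1 and 2 left out (0.438), with a range of 0.0317 to 0.438 over its alternatives. Cenpa missed the threshold without mouse 1 (adjusted p = 0.167), mouse 2 (adjusted p = 0.141), mouse 4 (adjusted p = 0.0842) and mouse 5 (adjusted p = 0.0857), and with no filter (0.0677), no replicate block (0.076), the mouse as a random effect (0.0526), the 10 libraries alone (0.112) and mice 1 and 2 left out (0.491), with a range of 0.0161 to 0.491 over its alternatives. Cenpe missed the threshold without mouse 1 (adjusted p = 0.067) and mouse 4 (adjusted p = 0.08), and with no replicate block (0.079), the 10 libraries alone (0.102) and mice 1 and 2 left out (0.12), with a range of 0.00849 to 0.12 over its alternatives. Kif23 missed the threshold without mice 1 and 2 (adjusted p = 0.0523), with a range of 0.000718 to 0.0523 over its alternatives. Without mouse 1, 2, 4 and 5 in turn the counts were 0, 0, 0 and 0 higher and 1, 2, 2 and 3 lower. The fit of the 10 libraries called 1 lower, and limma on FPKM as deposited 8. In 5A3+/del mice limma called 5 mitosis genes lower, none of them among those named here.

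Short motifs were counted in the promoters of the mitosis genes, and those of the 5 members that limma called are shown because they belong to these calls. In the RefSeq promoter table (build GRCm38.p6, 250 bases before to 50 after the start, the first entry of each symbol), 37 of 43 mitosis genes were matched, and CCAAT on either strand was in 81.1% of their promoters against 38.9% of the 8975 promoters of all genes tested that were matched. TTTGAA, the core of the cell cycle homology region, was in 75.7% against 12.2%. Among all genes called, the shares were close to those of all tested. CCAAT was in 34.9% of promoters of genes called higher and 37.5% of those called lower, and TTTGAA in 11.8% and 13.3%. In 41 promoters of the replication list the shares were 61% for CCAAT and 12.2% for TTTGAA. TTTCCCGC and TTTGGCGC, forms of the E2F motif, were in 17.1% and 14.6% of the replication promoters, in 2.7% and 2.7% of the mitosis promoters, and in 2.11% and 1.07% of all tested. The motifs AGATAA and TGTGGT, chosen after the calls were seen, were in 7.44% and 10.7% of promoters of genes called higher, in 6.74% and 15.8% of those called lower and in 6.55% and 12.8% of all tested. A match is a description of the letters and was not tested. The 250 bases before the start are given 5′ to 3′ on the gene's strand, with matches to the first 4 motifs on either strand in capitals.
Mki67 (chr7:135716380-135716629, minus strand): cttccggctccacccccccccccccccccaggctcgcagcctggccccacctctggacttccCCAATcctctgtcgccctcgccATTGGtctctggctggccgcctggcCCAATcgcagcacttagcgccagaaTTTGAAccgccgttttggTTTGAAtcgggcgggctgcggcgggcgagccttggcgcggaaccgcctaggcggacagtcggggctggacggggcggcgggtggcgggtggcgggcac
Cdc20 (chr4:118437344-118437593, minus strand): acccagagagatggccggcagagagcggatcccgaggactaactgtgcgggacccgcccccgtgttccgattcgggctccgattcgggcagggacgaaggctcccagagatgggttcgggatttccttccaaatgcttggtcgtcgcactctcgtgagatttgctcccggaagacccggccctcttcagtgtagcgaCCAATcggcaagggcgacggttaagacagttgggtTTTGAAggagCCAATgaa
Cenpa (chr5:30666636-30666885, plus strand): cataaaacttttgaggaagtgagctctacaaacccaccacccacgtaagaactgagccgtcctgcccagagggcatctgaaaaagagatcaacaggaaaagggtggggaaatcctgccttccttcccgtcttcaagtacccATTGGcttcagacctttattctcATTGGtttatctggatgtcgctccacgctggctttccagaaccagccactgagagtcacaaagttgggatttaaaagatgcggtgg
Cenpe (chr3:135212313-135212562, plus strand): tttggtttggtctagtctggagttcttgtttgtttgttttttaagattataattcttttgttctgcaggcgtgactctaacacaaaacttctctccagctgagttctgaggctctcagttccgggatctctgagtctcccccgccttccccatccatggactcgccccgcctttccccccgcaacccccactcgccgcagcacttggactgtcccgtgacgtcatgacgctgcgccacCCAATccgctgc
Kif23 (chr9:61946800-61947049, minus strand): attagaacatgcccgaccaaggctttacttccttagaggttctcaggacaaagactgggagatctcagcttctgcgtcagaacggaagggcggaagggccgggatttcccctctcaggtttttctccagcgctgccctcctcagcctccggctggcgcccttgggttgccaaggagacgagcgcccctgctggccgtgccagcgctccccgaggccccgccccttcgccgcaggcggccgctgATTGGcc

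Mki67 and Cdc20 hold CCAAT and TTTGAA in these 250 bases. Cenpa and Kif23 hold CCAAT there, and TTTGAA is found in them once the window runs to 50 bases after the start. Cenpe holds CCAAT and none of the other 3 motifs in either window.

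Of 79 cytosolic ribosomal protein genes tested, limma called 18, each higher in CD150hi HSC (22.8% called, 0 to 48 higher and 0 lower over the alternatives), beside 5.78% called higher over all genes. 72 had a positive difference, with a median of 0.20 (0.17 to 0.33). The medians under the other scalings were 0.28 for FPKM as deposited, 0.32 with median scaling and 0.33 with voom. Rps14 had FPKM of 614, 602, 606, 556 and 607 in CD150hi HSC and 379, 378, 363, 408 and 343 in CD150neg MPP (log2 difference 0.50 ± 0.12 SE, adjusted p = 0.00818). Rps14 missed the threshold without mouse 3 (adjusted p = 0.0508), and with the 10 libraries alone (0.0933) and mice 1 and 2 left out (0.0704), with a range of 1.26e-05 to 0.0933 over its alternatives. Rpl26 averaged 310.1 ± 39.4 in CD150hi HSC and 204 ± 11.9 in CD150neg MPP (SD, n = 5, log2 difference 0.48, adjusted p = 0.00182). Rpl26 missed the threshold in the fit of the 10 libraries (adjusted p = 0.0865), with a range of 5.5e-05 to 0.0865 over its alternatives. The values may include fragments of processed pseudogenes. Over all genes the median difference followed exon length, at 0.042 under 1000 bases, 0.019 from 1000 to 2000, -0.005 from 2000 to 4000 and -0.033 from 4000 on. The ribosomal protein genes had a median exon length of 1481 bases against 2891 over all genes, and their medians in these classes were 0.257, 0.187, 0.201 and 0.206. Without mouse 1, 2, 3, 4 and 5 in turn the counts were 7, 9, 10, 11 and 8 higher and 0, 0, 0, 0 and 0 lower. The fit of the 10 libraries called 0 higher with limma, while over all 29 libraries 38 were higher at an unadjusted p under 0.05 and 48 by voom.

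Of 76 nuclear genes for OXPHOS subunits tested, 7 were called higher and 2 lower in CD150hi HSC (11.8% called, 0 to 8 higher and 0 to 2 lower over the alternatives), with a median log2 difference of 0.14 (0.10 to 0.18). The share is close to the 10.7% over all genes. By exon length, in the same classes, the medians were 0.230, 0.108, 0.008 and 0.002. The ATP synthase subunit Atp5e (log2 difference 0.55, adjusted p = 0.0255) and Ndufb11 of complex I (log2 difference 0.47, adjusted p = 0.0466) were called higher, and the ATP synthase subunit Atp5b lower (log2 difference -0.52, adjusted p = 0.0124). Atp5b was lower in 4 of 5 mice. Atp5e missed the threshold without mouse 1 (adjusted p = 0.0885) and mouse 2 (adjusted p = 0.121), and with the 10 libraries alone (0.102) and mice 1 and 2 left out (0.345), with a range of 0.00842 to 0.345 over its alternatives. Atp5b missed the threshold without mouse 2 (adjusted p = 0.0796) and mouse 4 (adjusted p = 0.057), and with the 10 libraries alone (0.15) and mice 1 and 2 left out (0.216), with a range of 0.00114 to 0.216 over its alternatives. Ndufb11 missed the threshold without mouse 1 (adjusted p = 0.0819), mouse 2 (adjusted p = 0.229), mouse 3 (adjusted p = 0.119) and mouse 5 (adjusted p = 0.104), and with a pseudocount of 0.1 (0.0516), no filter (0.06), FPKM as deposited (0.0879), median scaling (0.0845), the 10 libraries alone (0.17) and mice 1 and 2 left out (0.386), with a range of 0.0161 to 0.386 over its alternatives. For the list, without mouse 1, 2, 3, 4 and 5 in turn the counts were 0, 2, 1, 5 and 3 higher and 1, 0, 1, 0 and 1 lower, and with FPKM as deposited they were 2 and 1. Of 25 glycolysis genes tested, 2 were called higher and 3 lower in CD150hi HSC (20% called, 0 to 3 higher and 1 to 3 lower over the alternatives), with a median log2 difference of -0.0003 (-0.04 to 0.04). The hexokinase Hk3 had 4.27, 4.07, 5.7, 6.12 and 4.99 in CD150hi HSC and 13.1, 9.65, 7.44, 14.4 and 11.7 in CD150neg MPP, without overlap (log2 difference -0.97 ± 0.14 SE, adjusted p = 0.000119). Pyruvate kinase Pkm2 was lower (log2 difference -0.59, adjusted p = 0.00192), and Pdk4, a pyruvate dehydrogenase kinase, was called higher (log2 difference 0.69, 0.38 to 1.58 over the alternatives, adjusted p = 0.0333), with 4 of 5 mice in that direction. Pdk4 missed the threshold without mouse 1 (adjusted p = 0.113), mouse 2 (adjusted p = 0.184), mouse 4 (adjusted p = 0.125) and mouse 5 (adjusted p = 0.0647), and with no filter (0.0718), no replicate block (0.138), the mouse as a random effect (0.0957), the 10 libraries alone (0.2), voom (0.0709) and mice 1 and 2 left out (0.495), with a range of 0.00377 to 0.495 over its alternatives. Pkm2 missed the threshold in the fit of the 10 libraries (adjusted p = 0.0565) and without mice 1 and 2 (adjusted p = 0.103), with a range of 0.000251 to 0.103 over its alternatives. The median was 0.03 with voom, and without mouse 1, 2, 3, 4 and 5 in turn the counts were 1, 1, 1, 0 and 0 higher and 2, 3, 3, 2 and 3 lower.

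Receptors divided between the populations. Of 37 cytokine and growth factor receptor genes tested, 5 were called higher and 9 lower in CD150hi HSC (37.8% called, 5 to 6 higher and 5 to 9 lower over the alternatives), with a median log2 difference of -0.07 (-0.13 to 0.07). The interleukin-1 receptor Il1r1 had FPKM of 2.64, 2.1, 2.43, 1.59 and 3.15 in CD150hi HSC and 16.2, 21, 17.9, 21.6 and 24.4 in CD150neg MPP (log2 difference -2.62 ± 0.18 SE, adjusted p = 1.13e-08), and the interleukin-10 receptor Il10ra 0.396, 0.574, 1.5, 0.198 and 0.743 in CD150hi HSC and 4.36, 7.5, 3.69, 4.89 and 4.53 in CD150neg MPP (log2 difference -1.77 ± 0.23 SE, -2.96 to -1.64 over the alternatives, adjusted p = 3.03e-05). Neither overlapped between the populations. Tek, Tgfbr3 (log2 difference 1.67, adjusted p = 3.27e-06) and the growth hormone receptor Ghr (log2 difference 1.23, 1.18 to 2.17 over the alternatives, adjusted p = 4.29e-05) were higher in CD150hi HSC. Of 36 homing and adhesion receptor genes tested, 7 were called higher and 13 lower in CD150hi HSC (55.6% called, 3 to 11 higher and 6 to 13 lower over the alternatives), with a median log2 difference of -0.12 (-0.17 to -0.02). Cd34, a sialomucin long used to divide stem cells from progenitors, had 30.2, 20.7, 32.2, 32.7 and 53 in CD150hi HSC and 187, 150.1, 143, 172 and 159.9 in CD150neg MPP (log2 difference -2.30 ± 0.15 SE, adjusted p = 7.53e-09). Itgam, the alpha chain of Mac-1, had 1.71, 0.615, 1.85, 1.08 and 1.38 in CD150hi HSC and 6.45, 9.14, 16.3, 8.65 and 10.01 in CD150neg MPP (log2 difference -2.17 ± 0.23 SE, adjusted p = 4.51e-06). Itgb3, Esam and Itga5 (log2 difference 1.10, adjusted p = 0.000416) were higher.

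Of 5 SLAM family receptors other than CD150 tested, 3 were called, each lower in CD150hi HSC (60% called, 0 to 1 higher and 1 to 3 lower over the alternatives), with a median log2 difference of -1.21 (-1.39 to -0.21). The median was -0.21 without a filter on low values. With Cd48, the genes Cd244 and Ly9 were lower. Cd244, the receptor of CD48, had FPKM of 0.38, 0.193, 0.133, 0.369 and 0.0411 in CD150hi HSC and 2.51, 3.55, 3.83, 2.84 and 5.14 in CD150neg MPP (log2 difference -1.76 ± 0.17 SE, -4.18 to -1.58 over the alternatives, adjusted p = 1.55e-06). Ly9 had 2.47, 6.86, 3.18, 3.92 and 5.42 in CD150hi HSC and 9.63, 11.5, 10.3, 11.7 and 12.4 in CD150neg MPP (log2 difference -1.21 ± 0.21 SE, adjusted p = 0.000705). Of 28 efflux pump and detoxification genes tested, 7 were called higher and 1 lower in CD150hi HSC (28.6% called, 3 to 7 higher and 1 to 2 lower over the alternatives), with a median log2 difference of 0.09 (-0.01 to 0.15). Besides Aldh1a1 and Sult1a1, the glutathione transferase Gstm5 rose (log2 difference 1.14, adjusted p = 0.000216). For this list, without mouse 4 the counts were 4 higher and 1 lower.

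Of 33 immediate early and AP-1 genes tested, 2 were called higher and 5 lower in CD150hi HSC (21.2% called, 0 to 4 higher and 2 to 7 lower over the alternatives), with a median log2 difference of -0.04 (-0.15 to 0.01). The G protein regulators Rgs1 and Rgs2 fell. Rgs1 had FPKM of 63.4, 47, 59.8, 42.7 and 44.8 in CD150hi HSC and 129, 84, 147, 86.2 and 118 in CD150neg MPP (log2 difference -1.08 ± 0.11 SE, adjusted p = 4.19e-06), and Rgs2 44.7, 39.5, 64.4, 16.5 and 30.003 in CD150hi HSC and 79.7, 76.8, 119, 46.2 and 84.4 in CD150neg MPP, lower in CD150hi HSC in 5 of 5 mice (log2 difference -1.08 ± 0.13 SE, adjusted p = 1.28e-05). The nuclear receptor Nr4a2 was called higher (log2 difference 0.82, adjusted p = 0.0114). Nr4a2 missed the threshold without mouse 1 (adjusted p = 0.0702) and mouse 3 (adjusted p = 0.0541), and with no replicate block (0.282), the mouse as a random effect (0.211), the 10 libraries alone (0.0649) and mice 1 and 2 left out (0.178), with a range of 0.00114 to 0.282 over its alternatives. For the list, without mouse 1 the counts were 1 higher and 4 lower. Of 40 interferon response genes tested, 4 were called higher and 4 lower in CD150hi HSC (20% called, 0 to 4 higher and 0 to 4 lower over the alternatives), with a median log2 difference of -0.07 (-0.13 to -0.01). Oas2 (log2 difference -1.26, adjusted p = 0.000595) and Oasl1 (log2 difference -1.09, adjusted p = 0.00519), which belong to the oligoadenylate synthetase family, fell. Ifi27l2a was called lower (log2 difference -1.29, -2.14 to -0.81 over the alternatives, adjusted p = 0.0495). Oas2 missed the threshold without mice 1 and 2 (adjusted p = 0.0656), with a range of 0.00018 to 0.0656 over its alternatives. Oasl1 missed the threshold in the fit of the 10 libraries (adjusted p = 0.0602) and without mice 1 and 2 (adjusted p = 0.189), with a range of 0.0021 to 0.189 over its alternatives. Ifi27l2a missed the threshold without mouse 1 (adjusted p = 0.246), mouse 3 (adjusted p = 0.0778), mouse 4 (adjusted p = 0.129) and mouse 5 (adjusted p = 0.0938), and with a pseudocount of 0.1 (0.0698), no filter (0.106), no replicate block (0.0987), the mouse as a random effect (0.0708), the 10 libraries alone (0.136), voom (0.0668) and mice 1 and 2 left out (0.254), with a range of 0.0378 to 0.254 over its alternatives. For the interferon list, without mouse 2, 3, 4 and 5 in turn the counts were 2, 2, 2 and 3 higher and 3, 2, 3 and 2 lower.

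Of 22 MHC and antigen presentation genes tested, 2 were called higher and 2 lower in CD150hi HSC (18.2% called, 0 to 3 higher and 1 to 3 lower over the alternatives), with a median log2 difference of 0.07 (0.02 to 0.13). H2-Aa, a class II chain, was higher (log2 difference 0.61, adjusted p = 0.00118), and H2-DMa, which helps load class II, was lower (log2 difference -0.55, adjusted p = 0.0242). The other member called lower was H2-Ob, described above, with the largest difference of those called (log2 difference -3.05, adjusted p = 1.47e-09). H2-DMa missed the threshold without mouse 3 (adjusted p = 0.0575) and mouse 4 (adjusted p = 0.152), and with the 10 libraries alone (0.13) and mice 1 and 2 left out (0.0653), with a range of 0.00623 to 0.152 over its alternatives. H2-Aa missed the threshold in the fit of the 10 libraries (adjusted p = 0.0974), with a range of 0.00034 to 0.0974 over its alternatives. For the list, without mouse 1, 2, 3, 4 and 5 in turn the counts were 1, 1, 1, 1 and 1 higher and 2, 3, 1, 1 and 2 lower. Of 8 Gimap GTPases tested, 1 was called higher and 1 lower (25% called, 0 to 1 higher and 0 to 1 lower over the alternatives), with a median log2 difference of 0.26 (0.12 to 0.35). Gimap5 was called higher (log2 difference 0.55, adjusted p = 0.0273) and Gimap7 lower (log2 difference -1.08, adjusted p = 0.04995), with Gimap5 higher in 4 of 5 mice. Gimap5 missed the threshold without mouse 1 (adjusted p = 0.0756), mouse 2 (adjusted p = 0.0873), mouse 3 (adjusted p = 0.116) and mouse 5 (adjusted p = 0.105), and with FPKM as deposited (0.0592), the 10 libraries alone (0.123) and mice 1 and 2 left out (0.228), with a range of 0.00968 to 0.228 over its alternatives. Gimap7 missed the threshold without mouse 1 (adjusted p = 0.195), mouse 2 (adjusted p = 0.0773), mouse 3 (adjusted p = 0.169), mouse 4 (adjusted p = 0.102) and mouse 5 (adjusted p = 0.0574), and with no filter (0.0981), no replicate block (0.0702), the mouse as a random effect (0.0508), the 10 libraries alone (0.0838), voom (0.114) and mice 1 and 2 left out (0.315), with a range of 0.0336 to 0.315 over its alternatives.

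**Figure D3:**
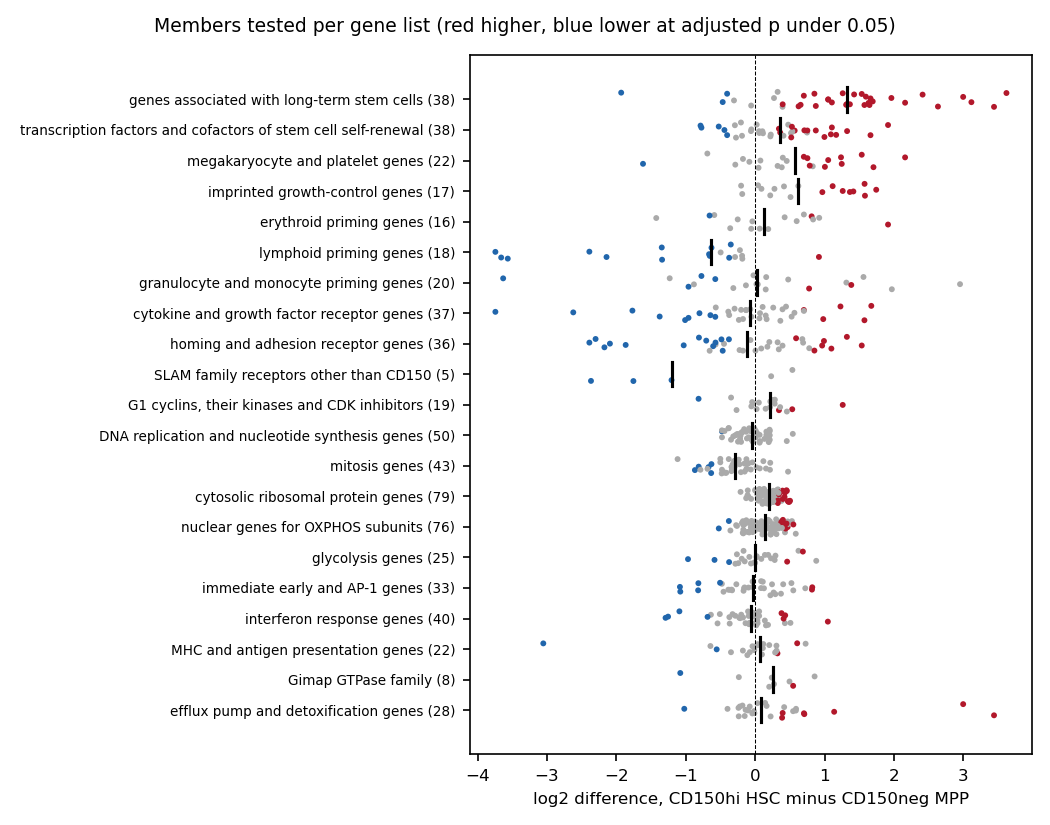
Each point is a member of a gene list that was tested, by its log2 difference of CD150hi HSC minus CD150neg MPP; red members were called higher, blue lower and grey neither, black bars are list medians and the dashed line is the median over all genes. The list of long-term stem cell genes has its median at 1.32, and the lymphoid list at -0.64.

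Markers of other cells were counted too, although the lineage antibodies of the study's sort (B220, CD8, Gr-1, CD3 and Ter119) are directed at B cells, T cells, granulocytes and erythroid cells. The 7 B cell markers in the table, 2 of them tested, summed to 9.99, 6.43, 9.31, 18.1 and 16.1 FPKM in CD150hi HSC of mice 1 to 5. In MPP they summed to 12.5, 8.84, 8.86, 14.9 and 14.3 FPKM. The most abundant was Cd79b, with a mean of 10.7 FPKM over the 10 libraries (log2 difference 0.17, adjusted p = 0.802). Cd79a, its partner in the B cell receptor, was not called (log2 difference -0.36, adjusted p = 0.606), and Ms4a1 was at 0 in all 10. The 9 T and NK cell markers in the table, 3 of them tested, summed to 14.6, 6.25, 12.5, 9.88 and 15.6 FPKM in CD150hi HSC of mice 1 to 5. In MPP they summed to 21.3, 36.2, 21.6, 49.2 and 36.5 FPKM. The most abundant was Nkg7, with a mean of 18.7 FPKM over the 10 libraries. Nkg7, a granule protein, was lower in CD150hi HSC (log2 difference -1.76, adjusted p = 0.000205) and Klrb1c, an NK cell receptor, was higher (log2 difference 1.44, 1.21 to 3.38 over the alternatives, adjusted p = 0.0042). Ncr1 and Gzma were at 0 in all 10. Cd3e, a T cell receptor chain, was at 1.06 in MPP of mouse 4 and at 0.0256 or less elsewhere, and Cd8a did not exceed 0.0301.

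The 7 erythroblast markers in the table, 3 of them tested, summed to 10.2, 4.22, 14.6, 12.9 and 13.6 FPKM in CD150hi HSC of mice 1 to 5. In MPP they summed to 9.4, 8.62, 17.6, 29.6 and 19.6 FPKM. The most abundant was Hbb-b1, with a mean of 10.2 FPKM over the 10 libraries (log2 difference -0.59, adjusted p = 0.0887). Alas2, of heme synthesis, was not called (log2 difference -0.36, adjusted p = 0.309), and leaving out mouse 1 gave 1 erythroblast marker called lower. The 8 mast cell and basophil markers in the table, 2 of them tested, summed to 111, 103, 106, 99.3 and 103 FPKM in CD150hi HSC of mice 1 to 5. In MPP they summed to 39.7, 47.1, 46.4, 37.1 and 41.1 FPKM. The most abundant was Gata2, with a mean of 71.6 FPKM over the 10 libraries, a gene that stem cells also express. Cpa3, a mast cell protease, was not called (log2 difference 0.34, adjusted p = 0.607), and Prss34 was at 0 in all 10. The 8 endothelial markers in the table, 5 of them tested, summed to 14.5, 28.8, 21.5, 23.9 and 26.1 FPKM in CD150hi HSC of mice 1 to 5. In MPP they summed to 27.5, 25.1, 31.6, 26.1 and 29.4 FPKM. The most abundant was Pecam1, with a mean of 13.5 FPKM over the 10 libraries (log2 difference -0.23, adjusted p = 0.402). Emcn was not called (log2 difference -0.18, adjusted p = 0.588), and Kdr, the VEGF receptor, was called higher (log2 difference 0.56, 0.51 to 1.72 over the alternatives, adjusted p = 0.043). Kdr missed the threshold without mouse 1 (adjusted p = 0.134), mouse 2 (adjusted p = 0.0653) and mouse 3 (adjusted p = 0.0582), and with no filter (0.108), FPKM as deposited (0.0895), median scaling (0.0916), no replicate block (0.0785), the mouse as a random effect (0.0558), the 10 libraries alone (0.0778), a trend in the variance prior (0.0824) and mice 1 and 2 left out (0.228), with a range of 0.018 to 0.228 over its alternatives. It was too low to test without mouse 4 or mouse 5, and it missed the threshold in 11 of the 13 alternatives that tested it. The 8 stromal markers in the table, 0 of them tested, summed to 1.13, 0.41, 1.24, 0.736 and 0.461 FPKM in CD150hi HSC of mice 1 to 5. In MPP they summed to 0.185, 0.294, 0.322, 0.48 and 0.486 FPKM. The most abundant was Col1a2, with a mean of 0.361 FPKM over the 10 libraries. Col1a1 did not exceed 0.414, and Adipoq was at 0 in all 10. The part of such cells in the differences above was not tested.

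The same contrast in 5A3+/del mice, which shares no library with the WT contrast, called 1036 genes (6.72%), 551 higher and 485 lower in CD150hi HSC. Both contrasts came from the same fit of all 29 libraries, with a joint normalization and a shared estimate of each gene's spread. Calls in both genotypes are therefore not independent of each other. 709 genes were called in both genotypes in the same direction, 43.1% of the WT calls and 68.4% of the 5A3+/del calls. Of the 1646 WT calls, 1477 (89.7%) had the same sign in 5A3+/del mice, against 58.8% of the genes not called in WT. Flt3 had a log2 difference of -3.54 there (adjusted p = 3.29e-10), Vwf 2.22 (adjusted p = 2.85e-09) and Aldh1a1 3.99 (adjusted p = 8.6e-09). Some named genes called in WT had the other sign in 5A3+/del mice, without a call. They included Ltf (log2 difference -0.60), Gstm5 (-0.06), Cdc20 (0.07), Atp5e (-0.13) and Ndufb11 (-0.04). The long-term stem cell list had a median of 1.25 and the lymphoid list -0.61. For the ribosomal protein genes it was 0.08. 8 list medians had the other sign in 5A3+/del mice: the granulocyte and monocyte list (-0.64 against 0.03 in WT), mature granulocyte and macrophage markers (-0.17 against 0.93 in WT), the G1 list (-0.11 against 0.21 in WT) and OXPHOS subunits (-0.03 against 0.14 in WT), and the sort gate, glycolysis, interferon and efflux lists. The WT median of the mature granulocyte and macrophage markers ran from 0.47 to 2.10 over the alternatives. Tested directly with limma, the difference between genotypes passed for 0 genes (0%), with 1385 at an unadjusted p under 0.05 and 0 by voom on recovered fragments.

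CD150lo HSC of the same WT mice lay between the 2 populations on the normalized log2 scale for 1520 of the 1646 genes called, against 46.3% of all genes tested; a wide gap leaves more room for a middle value, so the first count is a description. For genes at least 2-fold higher, the median CD150lo level was 28.4% of the way from MPP to CD150hi HSC, and for those at least 2-fold lower 31.7%. Vwf averaged 0.755 ± 0.319 FPKM in CD150lo HSC (SD, n = 5), close to its level in MPP. Flt3 averaged 29.4 ± 6.72 (n = 5).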

How the data were processed

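RNA from sorted cells was amplified and sequenced, and the authors deposited FPKM for 30025 genes in 29 libraries. Per the submitters' processing notes, Bowtie version 0.12.2 and HTSeq were used with the mm9 build. All sample columns of the table were used. Gene identifiers matched the GENCODE annotation of mm9 for 29279 genes (97.5%), and exon lengths turned FPKM steps into fragments, with 98.3% to 98.6% of low values whole within 0.02 in the 10 libraries. A gene entered the fit when 4 or more libraries reached 1 FPKM. Quantile normalization followed the log2(FPKM + 1) step. All 29 libraries went into 1 linear model in limma (version 3.58.1, R version 4.3.3) that held the mouse as a fixed block and the populations within each genotype. The Benjamini-Hochberg method adjusted p across all genes in the fit, and calls needed an adjusted p under 0.05. Mouse codes in the labels give the pairing, since the libraries of a code come from the same animal. Deviations of paired libraries from their group means correlated across genes at 0.0207 to 0.114, and the consensus within-mouse correlation was 0.0793. The methods of the study do not state a block. The steps were tested on simulated data.

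Named genes are those of the sort gate; the 10 genes with the largest differences in each direction among those called, without overlap in deposited FPKM and with a mean of at least 5 in the higher population, leaving out predicted genes, Riken clones, clone-named genes and pseudogenes; and in each of 29 gene lists up to 3 called members with the largest difference, or, where fewer than 2 were called, the 2 most abundant. Other members are named as examples of their list and were picked after their values were seen. Some genes that these rules name are not reported here. The members and lists were chosen with earlier results of these data known. Alternatives covered the pseudocount, the filter, the scaling, the block, the libraries in the fit, the variance prior, voom on recovered fragments and leaving out each mouse. Python version 3.11.15 with pandas version 2.3.3 and numpy version 2.4.6 was used for tables.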

Additional observations from a re-analysis of the deposited data

Results flagged for a closer look

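For the genes named by rule and tested, the 5 deposited FPKM of each WT population were checked for a library whose gap to the nearest other exceeded 0.71 of the range. Of 170 such groups, 13 held one, where a share of 0.05 would give about 8.5. The genes were picked by rule, some of them for non-overlap of the same FPKM, so this number is a rough guide and not a test. Mouse 2 was far in CD150hi HSC or MPP for 4 genes: Nupr1 in CD150hi HSC of mouse 2 (41.3 against 12.5 to 17.7), Sult1a1 in CD150neg MPP of mouse 2 (10.2 against 2.14 to 4.06), Clca1 in CD150hi HSC of mouse 2 (8.24 against 4.33 to 5.33) and Gstm5 in CD150hi HSC of mouse 2 (19.3 against 10.6 to 12.4), all FPKM. Mouse 3 was far for Sdpr in CD150neg MPP of mouse 3 (0.721 against 0 to 0.191), Atp5b in CD150hi HSC of mouse 3 (125 against 83.1 to 94.3) and Pdk4 in CD150neg MPP of mouse 3 (1.29 against 0.188 to 0.479). Mouse 1 was far for Ifi27l2a in CD150neg MPP of mouse 1 (19.9 against 0.769 to 3.79), H2-Aa in CD150hi HSC of mouse 1 (48.2 against 23.3 to 30.03) and Alas2 in CD150neg MPP of mouse 1 (3.7 against 2.54 to 2.71), and mouse 5 for Aldh1a1 in CD150hi HSC of mouse 5 (50.3 against 30.1 to 34.6) and Kif23 in CD150neg MPP of mouse 5 (21.5 against 14.8 to 16.1). The 1 low value was Rps14 in CD150hi HSC of mouse 4 (556 against 602 to 614).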

How the results depend on the processing

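Without the replicate block for mouse, 843 genes were higher and 705 lower in CD150hi HSC, against 890 and 756 with it. Leaving out each mouse in turn gave 599 to 768 higher and 521 to 640 lower. 2 alternatives moved these counts by over 1.5 times, both with fewer samples in the fit: 376 and 304 with the 10 libraries alone, and 382 and 352 without mice 1 and 2, an alternative chosen after seeing the data. Under a stricter filter (FPKM of at least 5 in 5 of the 10 libraries), fewer genes were tested: the genes differing between 5A3+/del CD150hi HSC and CD150neg MPP numbered 622 in place of 1036, and the genes called in both genotypes in the same direction 450 in place of 709. The difference between genotypes passed for 0 genes by limma in each alternative that could test it, and by voom, with 1385 at an unadjusted p under 0.05. Of 71 named genes called, 45 passed the threshold under every alternative in which they were tested, 16 at most, and no named gene that was called changed sign. The median of the efflux and detoxification genes changed sign under the stricter filter (-0.011). The median log2 difference of endothelial markers changed sign without mouse 1 (0.067), mouse 3 (0.034) or mice 1 and 2 (0.031), and ran from -0.262 to 0.067 over leaving out each mouse; the cause was not tested. The medians of the granulocyte and monocyte, erythroid, glycolysis, cytokine receptor, immediate early and B cell lists also crossed 0 in at least 1 alternative. Genes with few fragments, such as Dntt and H19, are limited by depth in the population where they are low.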

Other observations

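The genes and groups here were chosen after their values were seen, and counts are of genes called in CD150hi HSC against MPP by limma. Values are mean FPKM ± SD (n = 5 each) in CD150hi HSC and then in MPP for genes called higher. Igf1 and Bmp4 would not have passed the filter without the CD150hi libraries, and with no filter their adjusted p were 4.2e-05 and 7.1e-06. Igf1, an insulin-like growth factor, averaged 3.69 ± 1.31 and 0.256 ± 0.181 (log2 difference 1.84, 1.70 to 4.10 over the alternatives, adjusted p = 5.62e-06). Bmp4 averaged 3.08 ± 1.64 and 0.0812 ± 0.0819 (log2 difference 1.83, 1.66 to 5.77 over the alternatives, adjusted p = 8.95e-07), and the Wnt antagonist Sfrp1 3.7 ± 1.85 and 0.264 ± 0.236 (log2 difference 1.85, 1.62 to 4.29 over the alternatives, adjusted p = 1.39e-05). Apoe, the lipid carrier, averaged 31.7 ± 3.63 and 5.77 ± 0.775 (log2 difference 2.33, adjusted p = 7.53e-09). Lhcgr, the receptor of luteinizing hormone, averaged 39.2 ± 4.87 and 10.4 ± 3.21 (log2 difference 1.91, adjusted p = 4.51e-06). Runx1t1, a corepressor, averaged 5.36 ± 2.2 and 0.566 ± 0.321 (log2 difference 1.99, 1.73 to 3.23 over the alternatives, adjusted p = 1.99e-06).

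On the MPP side, the protein-coding gene Gm11428 on chromosome 11 had a larger log2(FPKM + 1) difference than any gene named by rule. Its means went from 237 ± 25.8 in MPP to 5.99 ± 1.88 in CD150hi HSC (SD, n = 5, log2 difference -5.15, adjusted p = 3.47e-09). Of 8 Ccl chemokine genes tested, 3 were called (37.5%), each lower: Ccl3, Ccl9 (log2 difference -2.38, -3.66 to -2.14 over the alternatives, adjusted p = 0.000111) and Ccl4 (log2 difference -0.89, adjusted p = 0.00866). Ccl4 missed the threshold without mice 1 and 2 (adjusted p = 0.108), with a range of 0.0033 to 0.108 over its alternatives. The median of the 8 was 0.03. Among 26 immunoglobulin variable genes tested, 5 were called (19.2%), each lower, and their short, similar sequences make single values uncertain. Of 1257 pseudogenes, 101 higher and 48 lower were called (11.9% against 10.7% over all genes), and fragments of their parent genes cannot be told apart from their own. Of 602 lincRNAs, 20 higher and 23 lower were called, 7.14% against 11.5% of protein-coding genes. The mitochondrial ribosomal RNAs took 23.3% to 29.7% of fragments in CD150hi HSC and 20.7% to 27.4% in MPP.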
